A study of Mus musculus with 12 samples.

Results

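The Rab genes encode small GTPases, and every gene of the probe annotation whose symbol is Rab followed by a number and at most one letter from a to d was taken, which gave 50 of 15830 measured genes. Related symbols such as Rab3il1 or Rab11fip3, which name partners of Rab proteins, are not members. The arrays came from spinal cords of 12 mice on a C57/BL6 background, 3 in each of 4 groups. The groups were injured EphA4 knockout, injured wild-type, sham EphA4 knockout and sham wild-type, and wild-type mice were littermates of the knockouts. Injured mice had the left side of the lumbar cord cut, and sham mice had only the laminectomy. Tissue of 6 mm length was taken 4 days after surgery from mice of 9 to 14.5 weeks by the labels, with 2 males and 1 female in each group. The study's methods call the sampled left side injured, whereas the labels call it uninjured. EphA4 is a receptor of axon guidance, and it was missing in the whole animal, so that a difference between genotypes need not start in the cord. Each array measured the RNA of 1 mouse in bulk tissue, where fewer cells of a type and less RNA per cell cannot be told apart.

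Rab proteins switch between a GDP-bound and a GTP-bound form and, on a given membrane, recruit the effectors that move, tether and fuse vesicles. Exchange factors load them with GTP, GTPase activators turn them off, and a prenyl anchor and the carrier GDI let them cycle between membrane and cytosol. In neurons Rab3 proteins sit on synaptic vesicles, and in phagocytes Rab32 and its relatives direct cargo to phagosomes and lysosome-related organelles. Members were therefore described by role, with 8 measured neuronal and 7 measured phagocyte members apart from those of endosomes, the Golgi and general secretion.

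The deposited values were log2 intensities per exon probeset, and probesets that name a gene alone were averaged to its level. The 50 members were measured by 443 probesets, with a median of 9 and a range of 2 (Rab11b) to 32 (Rab14) per gene. The arrays had medians of 5.79 to 5.85, and their small number limits the precision. Epha4 was at 4.82, 4.86 and 5.10 in injured EphA4 knockout and at 5.87, 6.25 and 6.11 in injured wild-type cords. In sham cords it was at 5.16, 5.19 and 5.15 in EphA4 knockout and at 6.66, 6.81 and 6.52 in wild-type mice, so that knockout and wild-type arrays did not overlap. Eif2s3y, a gene of the Y chromosome, was at 3.26 in sham EphA4 knockout replicate 2, which is labelled male, and at 7.21 to 8.15 in the other males. The cord was recognisable by its neuron markers, of which none of 13 was near background, and T cell markers were near background in all 5 measured genes. A gene counted as near background where it lay under the 95th percentile of 830 olfactory receptor genes of the same array on all 12 arrays. This held for 4 members (Rab17, Rab19, Rab25 and Rab38) and for 4167 of all genes.

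Injury changed 18 of the 50 Rab genes on the mean of both genotypes, 6 of them higher and 12 lower. A gene was called when the adjusted p of limma, fitted over all 15830 genes, was under 0.05 and the fold change at least 1.2, which 12.8% of all genes met as higher and 17.0% as lower. The members' shares were 12% and 24%, and their median log2 fold change of -0.07 was close to the -0.08 of all genes. The median size of the change, regardless of sign, was 0.21 for the members and 0.17 for all genes. Injured and sham arrays did not overlap at all for 4 members that were higher (Rab32, Rab31, Rab8b and Rab5c) and 5 that were lower (Rab3c, Rab9b, Rab3a, Rab6b and Rab36). Among all genes 8.86% were higher and 10.7% lower without overlap. Without sham EphA4 knockout replicate 2, whose Y-linked gene went against its label, 6 members were higher and 12 lower.

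**Figure D1:**
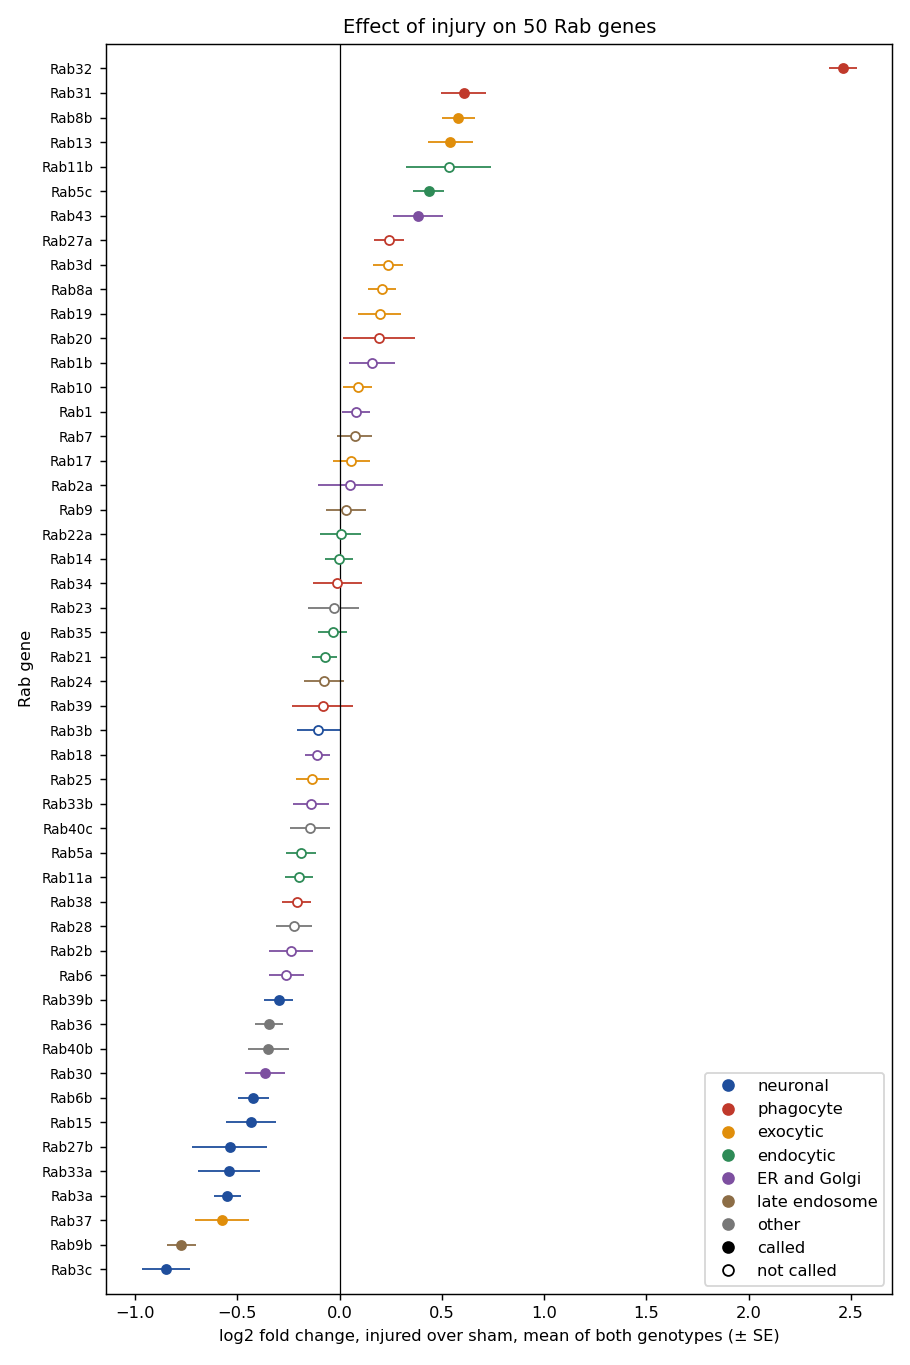
Log2 fold change of each of the 50 Rab genes, injured over sham, as the mean of both genotypes with its SE, coloured by role. Filled points passed the thresholds. Rab32 lies far to the right at 2.46, and 7 of the 8 neuronal members are filled points to the left of 0.

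The phagocyte list held the largest increase of the family. Of its 7 measured members 2 rose (Rab32 and Rab31), none were called lower, the other 5 were not called, and the median was 0.19. Among all genes 12.8% were called higher and 17.0% lower. Rab32, which directs cargo to lysosome-related organelles and to vacuoles that hold bacteria, was at 6.28, 6.21 and 6.39 in injured EphA4 knockout cords and at 6.88, 6.89 and 6.87 in injured wild-type cords. It was at 3.99, 4.05 and 4.10 in sham EphA4 knockout and at 4.11, 4.15 and 4.37 in sham wild-type cords. All injured arrays lay well above all sham arrays, and in injured cords the genotypes did not overlap either. The log2 fold change was 2.46 (SE 0.07, n = 6 against 6, limma adjusted p = 7.45e-11). On all 6 sham arrays Rab32 was not above background, as defined by the 95th percentile of olfactory receptor genes, so that its rise is a lower bound of at least 4.11-fold. Each of its 5 probesets was higher after injury, by 0.91 to 3.61, and 4 of them without overlap of arrays.

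Rab31, a regulator of transport between the trans-Golgi network and endosomes that also acts on phagosomes, rose by 0.61 (SE 0.11, limma adjusted p = 8.26e-04). It was at 8.68, 8.76 and 9.34 in injured EphA4 knockout and at 8.88, 8.95 and 9.14 in injured wild-type cords. The sham arrays were at 8.48, 8.32 and 8.17 in EphA4 knockout and at 8.35, 8.46 and 8.34 in wild-type cords. All 14 Rab31 probesets were higher after injury, by 0.45 to 0.77. Rab27a, which docks secretory granules of leukocytes, had a log2 fold change of 0.24 (adjusted p = 0.0209 by limma), under the required fold change. Rab20, Rab34 and Rab39 had values of 0.19, -0.01 and -0.08 and did not pass. Rab38, the closest relative of Rab32, was near background on all arrays. It had a value of -0.21 (adjusted p = 0.0347 by limma), also under the required fold change.

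Rab32 is shown with Rab3c, the member with the largest decrease, by the 300 bases around their starts (250 before and 50 after, 5′ to 3′, RefSeq on GRCm38.p6). Both lie on the minus strand, Rab32 at chr10:10558158-10558457 and Rab3c at chr13:110280157-110280456. Capitals mark matches, on either strand, to any motif searched. These were CACGTG (an E-box), GAGGAA (an ETS core), TGACTCA (the AP-1 site), GGGCGG (the GC box) and TATAAA (the TATA box), and none contains another.
Rab32: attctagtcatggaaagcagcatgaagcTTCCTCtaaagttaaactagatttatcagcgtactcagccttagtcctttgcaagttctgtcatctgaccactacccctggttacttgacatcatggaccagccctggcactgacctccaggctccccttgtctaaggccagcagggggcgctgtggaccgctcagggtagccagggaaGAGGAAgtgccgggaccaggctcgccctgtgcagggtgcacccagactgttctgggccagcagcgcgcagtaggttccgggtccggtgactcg
Rab3c: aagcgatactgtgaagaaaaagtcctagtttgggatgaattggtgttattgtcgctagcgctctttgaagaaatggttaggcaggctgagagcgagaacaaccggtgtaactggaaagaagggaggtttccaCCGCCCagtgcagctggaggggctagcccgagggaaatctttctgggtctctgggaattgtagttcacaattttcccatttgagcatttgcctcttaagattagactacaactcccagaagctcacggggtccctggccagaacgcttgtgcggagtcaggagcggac
The Rab32 window held GAGGAA at 2 places and no other motif. The Rab3c window held GGGCGG at 1 place and no other motif. Of all 32851 windows of this length, 28.3% held GAGGAA and 35.7% held GGGCGG. The E-box was in 7.2%, the AP-1 site in 5.2% and the TATA box in 13.6%. Windows were found for 43 of the 50 members (55 windows), of which 67.3% held GGGCGG and 18.2% GAGGAA. The median GC content was 61.3% in the windows of Rab genes and 52.7% in all windows. A match describes the letters only.

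The neuronal Rab genes fell nearly as a group. Of 8 measured members 7 were called lower and none higher, beside 17.0% and 12.8% of all genes. Their median log2 fold change was -0.49, beside -0.08 for all genes. Rab3c, a Rab3 protein of synaptic vesicles, was at 7.42, 7.15 and 7.92 in injured EphA4 knockout and at 7.30, 7.03 and 7.05 in injured wild-type cords. The sham arrays were at 8.13, 8.40 and 8.06 in EphA4 knockout and at 8.13, 8.14 and 8.12 in wild-type cords. The groups did not overlap, and the change was -0.85 (SE 0.12, limma adjusted p = 9.79e-05), a 1.80-fold decrease. Rab3a, the main Rab of synaptic vesicle release, was at 9.35, 9.35 and 9.30 in injured EphA4 knockout and 9.31, 9.48 and 9.30 in injured wild-type cords. It was at 9.83, 9.95 and 10.03 in sham EphA4 knockout and 9.84, 9.94 and 9.80 in sham wild-type cords, a change of -0.55 (SE 0.07, limma adjusted p = 3.22e-05). All 7 Rab3a probesets were lower after injury, 5 of them without overlap.

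Rab6b, the neuronal form of the Golgi protein Rab6, was at 8.87, 9.02 and 8.84 in injured EphA4 knockout and 8.90, 8.90 and 8.87 in injured wild-type cords. In sham cords it was at 9.50, 9.14 and 9.35 in EphA4 knockout and 9.34, 9.40 and 9.21 in wild-type mice, again with no overlap (change -0.42, SE 0.08, limma adjusted p = 7.62e-04). All 12 Rab6b probesets were lower. The other called neuronal members overlapped between treatments in at least 1 array. Rab33a, found on vesicles of growing axons, was at 5.73, 6.19 and 6.20 in injured EphA4 knockout and 5.75, 6.40 and 6.08 in injured wild-type cords. It was at 6.22, 6.77 and 6.47 in sham EphA4 knockout and 6.30, 6.91 and 6.92 in sham wild-type cords (change -0.54, SE 0.15, limma adjusted p = 0.0133), and only injured wild-type replicate 2 reached the sham range.

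Rab15, which acts in endocytic recycling of neurons, was at 6.30, 6.52 and 7.11 in injured EphA4 knockout and 6.59, 6.65 and 6.77 in injured wild-type cords. It was at 7.30, 7.17 and 7.10 in sham EphA4 knockout and 6.85, 7.21 and 6.91 in sham wild-type cords (change -0.43, SE 0.12, limma adjusted p = 0.0147). Only injured EphA4 knockout replicate 3 reached the sham range. Rab27b, which serves secretory granules, was at 5.51, 5.49 and 6.51 in injured EphA4 knockout and 5.70, 5.70 and 5.72 in injured wild-type cords. In sham cords it was at 6.01, 6.90 and 6.23 in EphA4 knockout and 5.98, 6.35 and 6.38 in wild-type mice. Its change of -0.54 (SE 0.19, limma adjusted p = 0.0382) rested on 5 of the 6 injured arrays, as replicate 3 of the EphA4 knockout lay within the sham range. It was the least firm of the group, since 8 of the 12 arrays each removed the call when left out, with adjusted p of 0.0631 to 0.0945. These were injured EphA4 knockout replicates 1 and 2, injured wild-type replicates 1, 2 and 3, sham EphA4 knockout replicate 2 and sham wild-type replicates 2 and 3.

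Rab39b, a neuronal Golgi protein, changed by -0.30 (SE 0.07, limma adjusted p = 0.00523). Rab3b had a value of -0.10 (SE 0.10) and did not pass. Injured EphA4 knockout replicate 3, the only array of its RNA extraction batch, had the highest level of Rab3c, Rab15, Rab27b and Rab39b among the injured arrays. Without it 7 neuronal members were still called lower, and Rab27b changed by -0.71 and Rab3c by -0.96. That array also had the highest mean of the 13 neuron markers among injured arrays, 9.61, against 9.39 to 9.49 in the others, and the sham arrays were at 9.72 to 9.97. Of these markers 8 were called lower after injury, beside 17.0% of all genes, with a median of -0.34 over the list. The part of neurons in the decrease of the Rab genes was not tested.

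**Figure D2:**
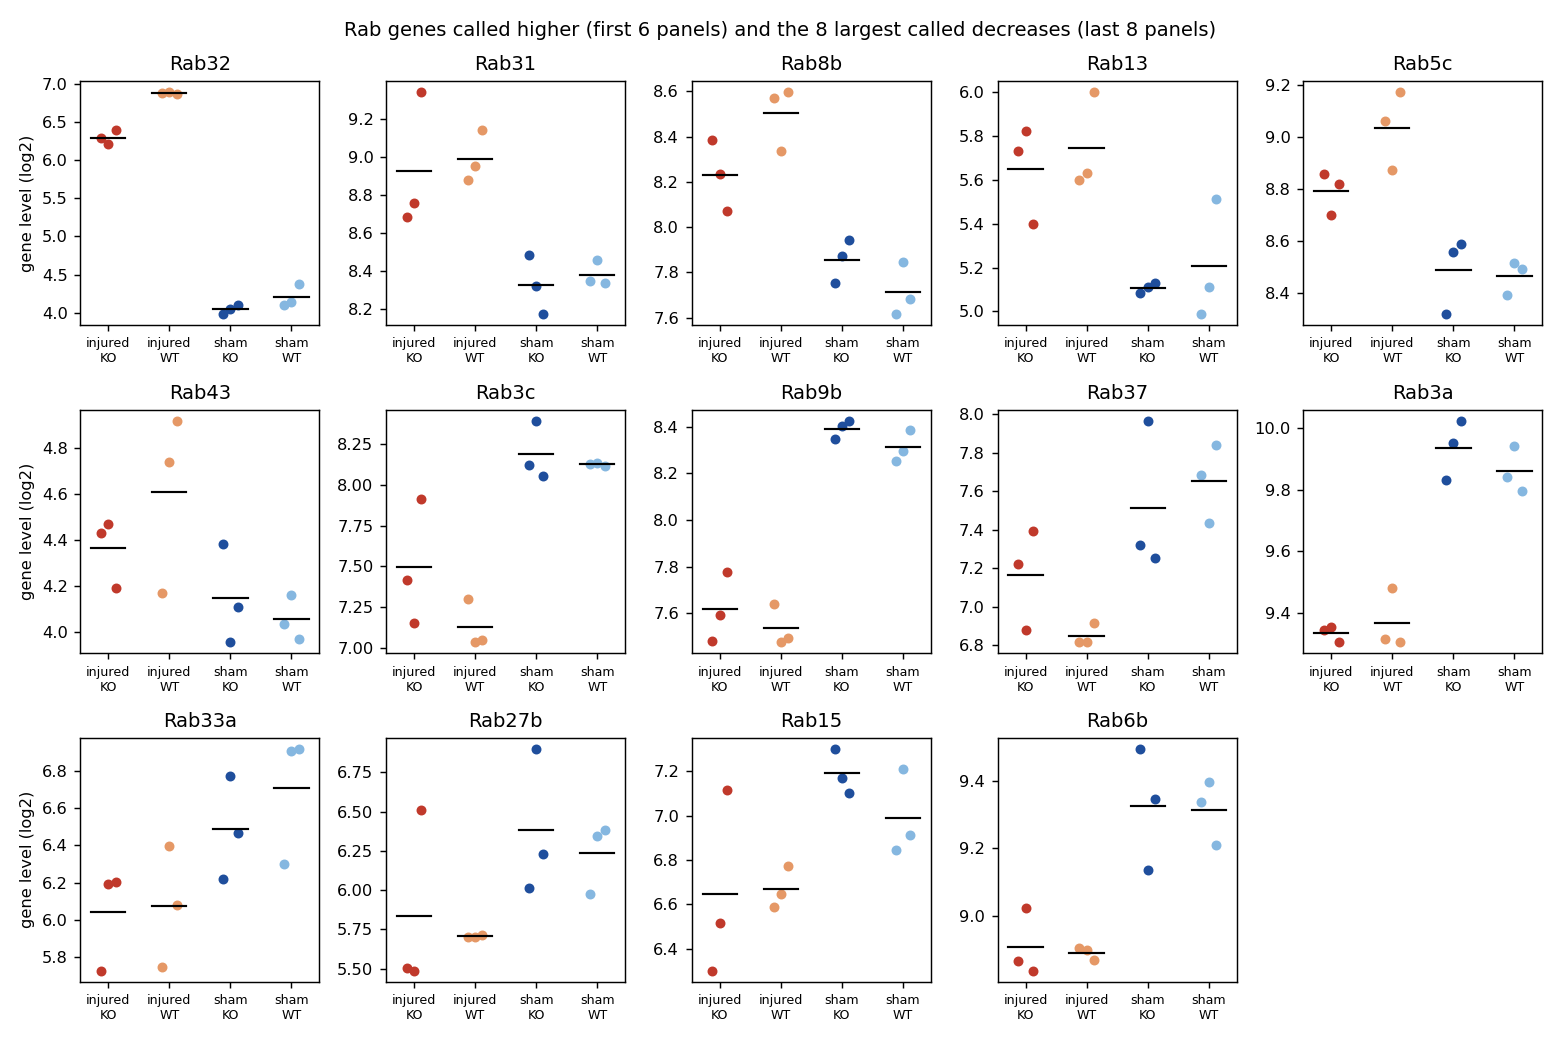
Gene level (log2) on each array for the 6 Rab genes called higher after injury and the 8 largest called decreases, in injured EphA4 knockout (KO), injured wild-type (WT), sham EphA4 knockout and sham wild-type cords, with the group mean as a bar. Scales differ between panels. Rab32, Rab31, Rab8b, Rab5c, Rab3c, Rab9b, Rab3a and Rab6b show no overlap of injured and sham arrays.

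Of 9 exocytic members 2 were called higher and 1 lower, beside 12.8% and 17.0% of all genes. Rab8b, which carries membrane proteins to the cell surface, was at 8.38, 8.23 and 8.07 in injured EphA4 knockout and 8.57, 8.34 and 8.60 in injured wild-type cords. It was at 7.76, 7.87 and 7.94 in sham EphA4 knockout and 7.62, 7.85 and 7.68 in sham wild-type cords, with no overlap (change 0.58, SE 0.08, limma adjusted p = 1.08e-04). Rab13, known from the assembly of tight junctions, changed by 0.54 (SE 0.11, limma adjusted p = 0.00184). Its injured arrays lay at 5.73, 5.83 and 5.40 in EphA4 knockout and at 5.60, 5.63 and 6.001 in wild-type cords. Its sham arrays lay at 5.08, 5.11 and 5.13 in EphA4 knockout and at 4.99, 5.11 and 5.51 in wild-type cords, so that only sham wild-type replicate 3 entered the injured range. Rab37, a Rab of mast cell granules, changed by -0.58 (SE 0.13, limma adjusted p = 0.00374). It was at 7.22, 6.88 and 7.40 in injured EphA4 knockout and 6.82, 6.82 and 6.92 in injured wild-type cords. The sham values were 7.32, 7.97 and 7.25 in EphA4 knockout and 7.68, 7.44 and 7.84 in wild-type cords, and only injured EphA4 knockout replicate 3 reached them.

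Of 8 endocytic members only Rab5c passed, as higher, beside 12.8% of all genes higher and 17.0% lower. Rab5c, 1 of the Rab5 proteins of early endosome fusion, was at 8.86, 8.70 and 8.82 in injured EphA4 knockout and 9.06, 8.87 and 9.17 in injured wild-type cords. It was at 8.32, 8.56 and 8.59 in sham EphA4 knockout and 8.39, 8.52 and 8.49 in sham wild-type cords (change 0.44, SE 0.08, limma adjusted p = 6.47e-04). All 9 Rab5c probesets were higher. Rab11b, a Rab of recycling endosomes measured by 2 probesets, had a value of 0.53 but an SE of 0.21, and did not pass (adjusted p = 0.0652 by limma). Of the 4 late endosomal members Rab9b, a relative of the Rab that returns receptors to the Golgi, was lower, at 7.48, 7.60 and 7.78 in injured EphA4 knockout and 7.64, 7.48 and 7.49 in injured wild-type cords. Its sham values were 8.35, 8.40 and 8.43 in EphA4 knockout and 8.25, 8.30 and 8.39 in wild-type cords (change -0.77, SE 0.07, limma adjusted p = 2.5e-06). All 4 of its probesets were lower without overlap. Rab9b was the only late endosomal member called, beside 17.0% of all genes lower. Rab7, which drives late endosomes to lysosomes, had a value of 0.07 (SE 0.08) and did not pass.

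Of 9 members of the endoplasmic reticulum and Golgi, Rab43 was called higher and Rab30 lower, beside 12.8% and 17.0% of all genes. Rab1, Rab1b, Rab2b and Rab6, among others, did not pass. Rab43, which acts in transport to the Golgi, was at 4.43, 4.47 and 4.19 in injured EphA4 knockout and 4.17, 4.74 and 4.92 in injured wild-type cords. It was at 4.38, 3.96 and 4.11 in sham EphA4 knockout and 4.04, 4.16 and 3.97 in sham wild-type cords (change 0.38, SE 0.12, limma adjusted p = 0.0268). Rab43 was not above background on all 6 sham arrays, on 2 injured EphA4 knockout arrays and on 1 injured wild-type array, so that the fitted value gives no fold. The call was lost when any of 7 arrays was left out, with adjusted p of 0.0531 to 0.071. These were injured EphA4 knockout replicates 1 and 2, injured wild-type replicates 2 and 3, sham EphA4 knockout replicates 2 and 3 and sham wild-type replicate 3. Rab30, a Golgi protein, changed by -0.36 (SE 0.10, limma adjusted p = 0.00986). Of 5 members put in no role, Rab36 changed by -0.35 (SE 0.07) and Rab40b, which is part of a ubiquitin ligase, by -0.35 (SE 0.10). Both passed as lower, beside 17.0% of all genes. All 18 called members had the same sign within RNA extraction batch 1 and within batch 2, each of which held all 4 groups, and 16 remained called whichever array was left out.

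Close relatives were set side by side in pairs, as differences of log2 fold changes with 95% intervals and with no further test. Of 11 pairs measured 3 were left out because a gene was not above background on over 6 of the 12 arrays (Rab3d with Rab3a, Rab32 with Rab38 and Rab39 with Rab39b). The difference of Rab9 minus Rab9b was 0.81 (95% interval 0.50 to 1.11), as Rab9 had a value of 0.03. Rab27a minus Rab27b gave 0.78 (0.32 to 1.24). Rab5c minus Rab5a gave 0.63 (0.48 to 0.77), Rab31 minus Rab22a 0.60 (0.33 to 0.87) and Rab8b minus Rab8a 0.37 (0.27 to 0.48). Rab33b minus Rab33a gave 0.40 (0.12 to 0.68) and Rab11b minus Rab11a 0.73 (0.19 to 1.28). The interval of Rab6 minus Rab6b (-0.07 to 0.39) included 0. Probes of close relatives can share sequence, and no probe sequence was used here.

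**Figure D3:**
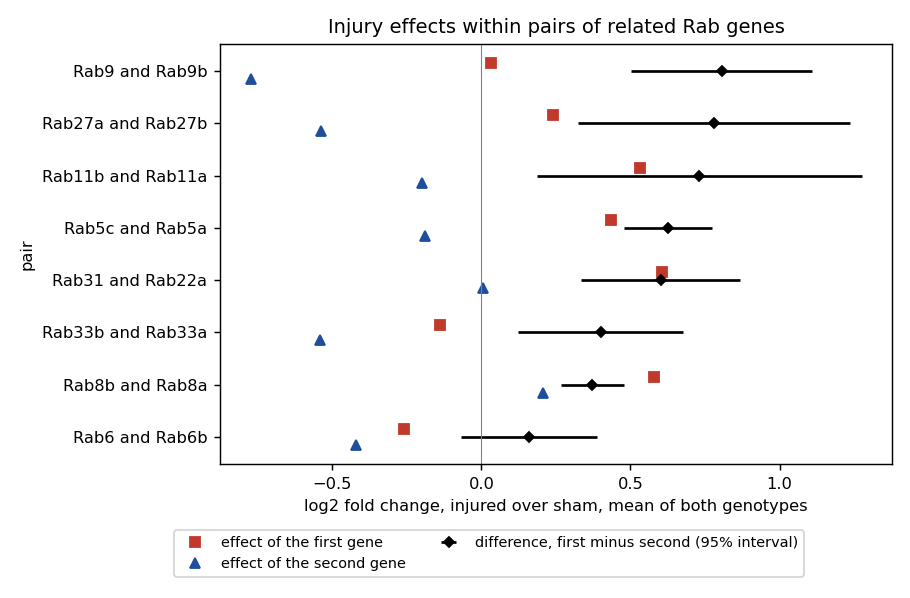
Log2 fold change, injured over sham, of both genes in the 8 pairs of related Rab genes compared (squares and triangles), and the difference of the first minus the second with its 95% interval (diamonds). The intervals of 7 pairs lie above 0, and that of Rab6 and Rab6b crosses it.

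In EphA4 knockout cords alone injury raised 4 Rab genes and lowered 7, beside 8.98% of all genes higher and 11.5% lower. In wild-type cords alone it raised 7 and lowered 7, beside 11.2% higher and 12.9% lower. The EphA4 knockout counts were 2 and 4 without sham EphA4 knockout replicate 2, 2 and 3 without injured EphA4 knockout replicate 1, and 5 and 10 without injured EphA4 knockout replicate 3. After centring the arrays on their medians, the counts were 3 higher and 12 lower in EphA4 knockout and 6 higher and 11 lower in wild-type cords. Among all genes the shares were then 8.22% higher and 15.1% lower in EphA4 knockout and 9.72% higher and 19.8% lower in wild-type cords. Members called higher in both genotypes were 4 (Rab32, Rab31, Rab8b and Rab13) and members called lower in both were 4 (Rab3c, Rab9b, Rab3a and Rab6b). No member was called in opposite directions, and 38 of 50 had the same sign. These joint counts were made for the members alone, with no share over all genes, and so describe nothing particular to them. Rab8b changed by 0.37 (SE 0.11) in EphA4 knockout and by 0.79 (SE 0.11) in wild-type cords. Rab3c changed by -0.70 (SE 0.17) in EphA4 knockout and by -1.001 (SE 0.17) in wild-type cords. The test of the difference between the injury effects, with the limits the study set for genotype comparisons (a raw limma p below 0.01 and a 1.2-fold change or more), passed neither for Rab8b (-0.41, unadjusted p = 0.024 by limma) nor for Rab3c (0.30, unadjusted p = 0.221 by limma).

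**Figure D4:**
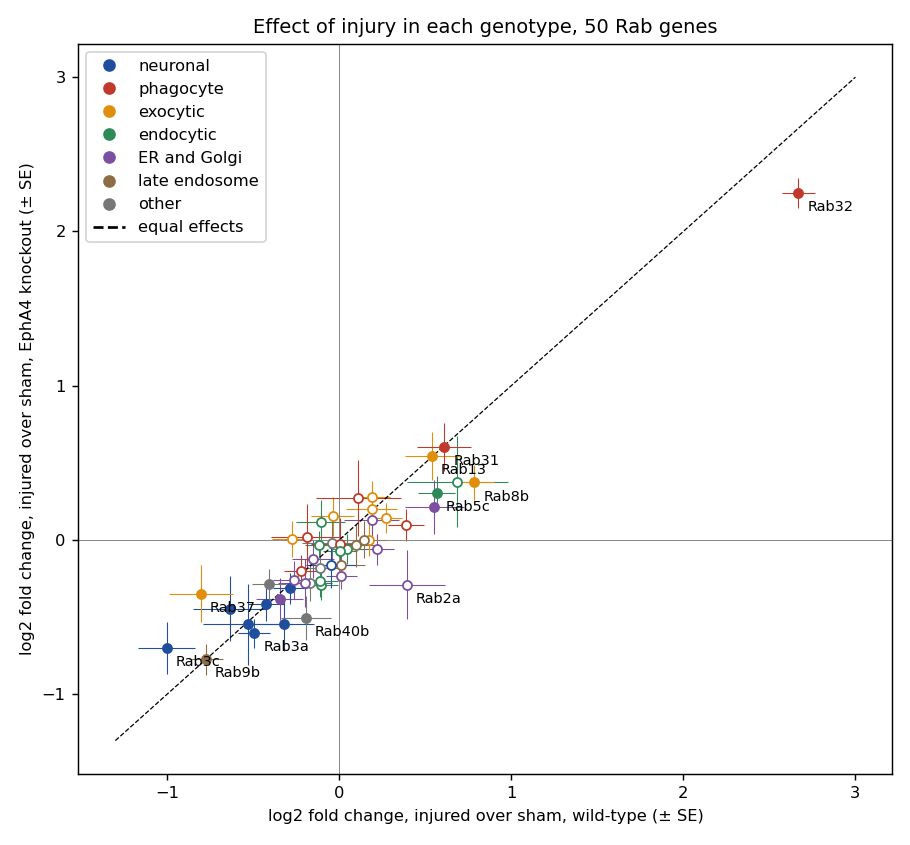
Log2 fold change of injured over sham in EphA4 knockout (vertical axis) against wild-type cords (horizontal axis) for the 50 Rab genes, with SE in both directions and the dashed line of equal effects. Filled points were called on the mean of both genotypes. Rab32 lies below the line at 2.25 in EphA4 knockout and 2.67 in wild-type cords.

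Between genotypes few genes were called at all, and among the Rab genes only Rab32 was, in injured cords. In sham cords no member passed the thresholds of the study in either direction, beside 0.373% of all genes higher and 0.973% lower in EphA4 knockout. By limma 1 member had an unadjusted p under 0.05 there, Rab2a. Sham arrays of the genotypes did not overlap for 2 members that were higher (Rab5a and Rab14) and 2 that were lower in EphA4 knockout (Rab21 and Rab32 at background), beside 5.43% and 6.34% of all genes. In injured cords no member was higher and 1, Rab32, was lower in EphA4 knockout, beside 0.133% of all genes higher and 0.663% lower. Injured arrays of the genotypes did not overlap for Rab30, which was higher, and for Rab32, Rab5c and Rab18, which were lower in EphA4 knockout, beside 3.11% of all genes higher and 5.51% lower. The injury effect differed between genotypes by these thresholds for no member in the higher and 1 in the lower direction, again Rab32, beside 0.512% and 0.543% of all genes.

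Rab32 was 0.58 lower in injured EphA4 knockout than in injured wild-type cords on the log2 scale, a 1.498-fold difference (log2 fold change -0.58, SE 0.11, unadjusted p = 4.34e-04 and adjusted p = 0.998 by limma over the 6 injured arrays). Every EphA4 knockout array lay below every wild-type array, and the exact two-sided permutation p was 0.1, the smallest that 3 against 3 arrays allow. All 5 probesets of Rab32 were lower in EphA4 knockout, by -1.25 to -0.23. With the median in place of the mean of the probesets the difference was -1.25. On every injured array that median was the same probeset, which had the largest difference of the 5. The others differed by -0.58 to -0.23. The difference of the mean levels was -0.67 within RNA extraction batch 1, from EphA4 knockout replicate 2 against wild-type replicates 2 and 3. Within batch 2 it was -0.59, from replicate 1 of each genotype. These are arrays of the same comparison. The study lists Rab32 among genes with a smaller increase in knockouts on these same arrays, so that its genotype difference is not independent evidence. The injury effect of Rab32 was 2.25 in EphA4 knockout and 2.67 in wild-type cords, a difference of -0.42 (SE 0.14, unadjusted p = 0.00957 and adjusted p = 0.853 by limma). That difference passed narrowly and was lost when any of 10 of the 12 arrays was left out, all but injured EphA4 knockout replicate 3 and sham wild-type replicate 3. The unadjusted p ranged from 0.00301 to 0.0271 over these fits, and without sham EphA4 knockout replicate 2 it was 0.0189. The difference was -1.29 with the median of the probesets, which on the injured arrays was again that same probeset. Both injury effects were fitted against sham levels that were not above background.

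Macrophage and microglia markers moved with Rab32. All 16 measured markers rose with injury, with a median log2 fold change of 2.16, beside 12.8% of all genes called higher. In injured cords all 16 were below 0 for EphA4 knockout against wild-type, with a median of -0.30 and none called. Of all 15830 genes 8088 were above 0 in that comparison. Their mean was at 8.19, 8.15 and 7.91 in injured EphA4 knockout and at 8.36, 8.25 and 8.48 in injured wild-type cords, and at 5.87 to 6.09 in all sham cords. Rab32 minus this mean was -1.91, -1.95 and -1.52 in injured EphA4 knockout and -1.49, -1.36 and -1.61 in injured wild-type cords. The genotypes overlapped on this measure only through injured EphA4 knockout replicate 3. Knockout replicates 1 and 2 lay below every injured wild-type array. The part of these cells in the Rab32 difference was not tested further. Among other cells, injury raised 4 of 7 markers of pericytes, fibroblasts and meninges and 3 of 6 of endothelial cells, and lowered none. Of all genes 12.8% were called higher and 17.0% lower after injury. Of 7 astrocyte markers it raised 4 and lowered 1. The list of pericytes, fibroblasts and meninges averaged 8.66 in injured EphA4 knockout replicate 1, against 6.93 to 7.73 in the other injured arrays. All 8 markers of dividing cells rose with injury. In injured cords 2 of them were called lower in EphA4 knockout than in wild-type mice, beside 0.663% of all genes. Skeletal muscle markers averaged 5.83 in injured wild-type replicate 1, against 4.23 to 4.67 in the other injured arrays.

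**Figure D5:**
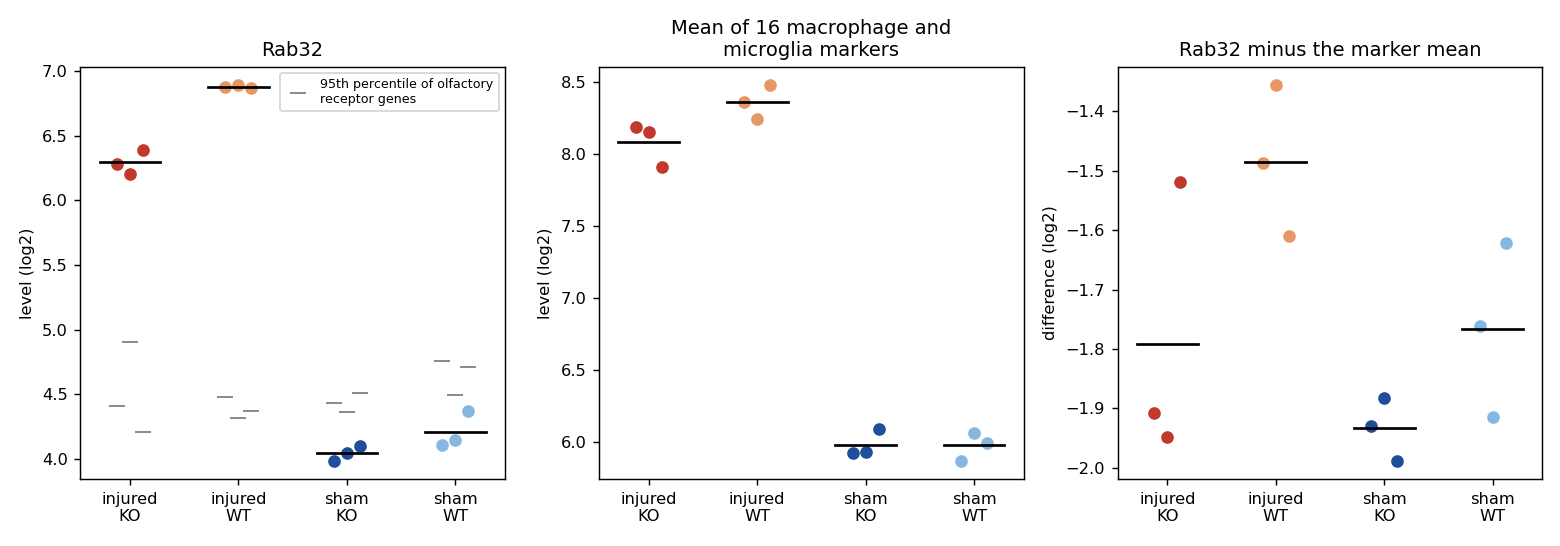
Level (log2) of Rab32, the mean of 16 macrophage and microglia markers, and their difference on each array of the 4 groups, with group means as bars and, for Rab32, the 95th percentile of olfactory receptor genes as grey dashes. All sham arrays of Rab32 lie under their dashes. The injured groups are apart for Rab32 and overlap for the difference, through injured EphA4 knockout replicate 3 alone.

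The proteins that work on Rab proteins were counted from lists of the pathway, at the same thresholds for injury. Of all genes 12.8% met these as higher and 17.0% as lower. A list of effectors of neuronal Rab proteins and of other proteins of vesicle release fell, with 7 of 9 lower and none higher. Its median was -0.63, beside -0.08 for all genes and -0.34 for the 13 neuron markers. Rims2 and Rims1, scaffolds that bind Rab3 at the release site, changed by -0.72 (SE 0.08, limma adjusted p = 2.03e-05) and by -0.67 (SE 0.08, limma adjusted p = 2.71e-05). Doc2a, a calcium sensor of release, and Bicd1, a dynein adaptor of Rab6, each changed by -0.67 (SE 0.08). Among 27 exchange factors 6 were higher and 8 lower, with a median of 0.02. Rab3il1, an exchange factor of Rab8 proteins, rose by 1.10 (SE 0.08, limma adjusted p = 4.5e-07), and Rab3ip, its close relative, fell by 0.41 (SE 0.08, limma adjusted p = 9.1e-04). Rin3 and Rin2, exchange factors of Rab5 proteins, rose by 0.46 (SE 0.09) and 0.37 (SE 0.08). Hps1 and Hps4, which together load Rab32 and Rab38, had values of 0.04 (SE 0.07) and 0.05 (SE 0.08) and did not pass.

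Rab3il1 was also the only exchange factor past the genotype thresholds in injured cords (-0.45, SE 0.14, unadjusted p = 0.00906 and adjusted p = 0.998 by limma). Its injury effect was 0.84 in EphA4 knockout and 1.37 in wild-type cords (difference -0.54, SE 0.17, unadjusted p = 0.00718 and adjusted p = 0.853 by limma). Of 35 GTPase activators 3 were higher and 10 lower after injury, with a median of -0.12, beside 12.8% and 17.0% of all genes. They included Sgsm1, which fell by 0.56 (SE 0.09), and the relatives Tbc1d22a, which rose by 0.48 (SE 0.08), and Tbc1d22b, which fell by 0.46 (SE 0.08). Of 35 activators 1 was called between genotypes, Tbc1d8b, at -0.71 in sham EphA4 knockout against sham wild-type cords and measured by 1 probeset. Among all genes 0.973% were called lower in that comparison. Of 11 effectors of lysosomes and leukocytes only Plekhm1, which links late endosomes to lysosome fusion, rose (0.53, SE 0.11, limma adjusted p = 0.0025). Of 14 endosomal effectors 1 was higher, Ankfy1 at 0.33 (SE 0.06), and 3 were lower, namely Rab11fip3 at -0.40 (SE 0.07), Appl1 at -0.33 (SE 0.07) and Zfyve20 at -0.28 (SE 0.08). Of 7 genes of prenylation and GDI only Rabif, which binds Rab proteins free of nucleotide, was called, at -0.29 (SE 0.10), while Chm, which presents Rab proteins for prenylation, had a value of -0.21 and did not pass.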

How the data were processed

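RNA of 12 spinal cords, 1 Affymetrix mouse exon array per mouse, was measured. The authors normalized the arrays by RMA in Partek with core probesets, with mm9 named in the submitters' notes, and the deposited values are log2 intensities per exon probeset. All 12 columns were mapped to mice by the labels. Of 194262 probesets 179614 name 1 gene, and 1331 that name several and 13317 that name none were left out. Gene levels were the mean of the probesets.

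Injury effects and their difference between genotypes were fitted over all 12 arrays, and genotype differences within the 6 sham and the 6 injured arrays, as in the study, with limma 3.58.1 (R 4.3.3) over all genes. Injury was called at an adjusted p under 0.05, genotype at an unadjusted p under 0.01, both with a fold change of at least 1.2. The exact permutation test was two-sided. Values by array are given for the called members with the 8 largest increases and decreases, and for those past a genotype threshold. Pathway genes named are up to 4 per list with the smallest p, apart from Hps1, Hps4 and those called between genotypes, which were added after their values were seen. Members, roles and lists were chosen with earlier results of these data known. The fold bound for a gene not above background took, on each sham array, the higher of its level and the background level. Alternatives were other probeset summaries, scalings, filters, covariates, a replicate block, array weights, thresholds and leaving out each array. The steps were tested on simulated data. Replicate numbers did not pair the mice. The p-values measure the spread between these mice.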

Additional observations from a re-analysis of the deposited data

Results flagged for a closer look

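The difference between the injury effects of Rab32 was flagged because the test of the difference itself passed the thresholds of the study. The effect was 2.25 in EphA4 knockout and 2.67 in wild-type cords, a difference of -0.42 (SE 0.14, unadjusted p = 0.00957 and adjusted p = 0.853 by limma, 3 arrays per group). In the same cords the macrophage and microglia markers had a median difference of injury effects of -0.31, with 15 of 16 below 0 and none called. Markers of dividing cells had a median of -0.26, with 8 of 8 below 0 and 2 called lower, and those of pericytes, fibroblasts and meninges a median of -0.30, with 7 of 7 below 0 and none called. Rab32 was not above background on the 6 sham arrays. The part of any of these cells was not tested.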

How the results depend on the processing

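None of the 18 members called for injury changed sign under any alternative run, nor did the genotype differences of Rab32 and Rab2a. With each array centred on its median, 12 members were lower in EphA4 knockout and 11 in wild-type cords, beside 15.1% and 19.8% of all genes. On the mean of both genotypes 6 were then higher and 16 lower, beside 11.1% and 22.9% of all genes. In that setting 1 phagocyte member was lower, and 0 differed in injury effect. Quantile normalization again gave 5 higher and 11 lower on the mean of both genotypes, beside 12.8% and 17.7% of all genes. With the median of the probesets 2 were lower in EphA4 knockout and 4 higher in wild-type cords. With genes above the median level, 3 were higher on the mean of both genotypes, 1 of them a phagocyte member, 1 was higher in sham EphA4 knockout cords and 0 differed in injury effect. Rab2a made up the 1 sham call with sex, batch or array weights in the model. With array weights 13 were lower after injury in EphA4 knockout cords, and in injured cords 1 was higher and 2 lower in EphA4 knockout. With no fold minimum 1 phagocyte member was lower. With probesets above background 0 differed in injury effect, and with an adjusted p 0 differed between genotypes in injured cords or in injury effect (1 had an unadjusted p under 0.05 in injured cords and 3 in injury effect).

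With the replicate block 0 members differed in injury effect (Rab32 at an unadjusted p of 0.0108). The 18 same-numbered pairs correlated at -0.30 to 0.22, 5 of them over 0.1, so the numbers were not used as pairs.

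Leaving out each array gave 2 to 5 members higher and 3 to 10 lower in EphA4 knockout and 4 to 8 higher in wild-type cords. In EphA4 knockout cords 2 were higher without any of the 6 EphA4 knockout arrays other than injured replicate 3, and 3 or 4 lower without injured replicate 1 or sham replicate 1 or 2. In wild-type cords 4 were higher without injured replicate 3 or sham replicate 1. It gave 0 to 1 member higher between sham genotypes, 0 to 1 higher between injured genotypes, and 0 to 1 in each direction for the injury effects. The number of arrays, and levels near background for Rab32 and Rab43 in sham cords, limit the precision.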

Other observations

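Rab2a, which acts between the endoplasmic reticulum and the Golgi, came nearest to the thresholds among sham cords. It was at 8.99, 9.50 and 9.63 in sham EphA4 knockout and at 9.08, 8.52 and 8.64 in sham wild-type cords (log2 fold change 0.63, SE 0.19, unadjusted p = 0.01, narrowly over the threshold, and adjusted p = 0.737 by limma). Of its 5 probesets 1 was at 7.18, 10.15 and 10.38 in sham EphA4 knockout and at 9.04, 5.50 and 6.41 in sham wild-type cords. The same probeset was at 9.48, 7.48 and 8.97 in injured EphA4 knockout and at 10.85, 7.35 and 8.30 in injured wild-type cords, so that its arrays spread widely in every group. The other 4 Rab2a probesets differed by 0.07 to 0.43 between genotypes in sham cords. Without the wide probeset, an alternative chosen after seeing the data, the difference was 0.22 (SE 0.10, unadjusted p = 0.0484 by limma).

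Rab14, measured by 32 probesets, had 15 of them higher and 17 lower after injury, from -0.38 to 0.48. Rab13 had 8 of 9 probesets higher, from -0.01 to 1.29.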
